A study of Mus musculus with 6 samples.

Results

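MHC class I and II presentation was followed in 6 bulk RNA-seq libraries of mouse duodenal villus epithelium through 10 genes chosen by name. The class II members were H2-Aa, H2-Ab1, H2-Eb1, Cd74 and Ciita, and the class I members were H2-K1, H2-D1, B2m, Tap1 and Nlrc5. They were 10 of the 20073 genes counted, and all 10 passed the filter on low counts. Ciita had a second row in the count table, nested within the main one, so that the 10 genes filled 11 rows.

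The 3 double mutant libraries (DM) came from mice labelled Smad4 knockout; beta-catenin GOF, which carried Smad4 fl/fl, the floxed exon 3 allele of Ctnnb in 1 copy (fl/wt) and a Villin-CreERT2 transgene, and which received intraperitoneal tamoxifen on consecutive days. The Villin promoter directs this Cre to the whole intestinal epithelium, and villi were taken about a week after induction. The 3 wild-type libraries (WT) came from littermates that received no injection, so the mutations and tamoxifen itself cannot be told apart, and which of these alleles the littermates carried was not given in the sources used here. The mice had a C57BL6-enriched background and were matched for age, with no age in numbers in the sources used here. Each library was from 1 mouse, and replicate 1 was a male and replicates 2 and 3 were females in both groups.

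MHC class II molecules pair an alpha chain with a beta chain, such as H2-Aa with H2-Ab1, while H2-Eb1 is the beta chain of a further molecule, and they present peptides from endosomes to CD4+ T cells. Cd74, the invariant chain, occupies their groove until they reach the endosome, and Ciita is the coactivator that switches their genes on. MHC class I molecules pair a heavy chain (H2-K1, H2-D1) with beta-2-microglobulin (B2m) and present peptides that the TAP transporter (Tap1 with Tap2) brings from the cytosol, and Nlrc5 is the coactivator of class I genes. In the small intestine both classes are found on enterocytes, where interferon-gamma is a known inducer of class II.

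Between 19678507 and 26337318 reads per library were counted, and 3 counts, taken as the floor, corresponded to 0.114 to 0.152 CPM, that is, reads relative to the library total. Levels below are CPM after TMM scaling in edgeR and fold changes are DM relative to WT. Smad4, the gene deleted in DM, was at 120, 180 and 144 CPM in WT and at 26.1, 36.8 and 32.1 CPM in DM, a log2 fold change of -2.22 ± 0.19 (SE, edgeR adjusted p = 0.000145). Ctnnb1, which loses only an exon, had a log2 fold change of -0.15. All 10 enterocyte markers were detected, with summed levels of 42398 to 49000 CPM in WT and 26227 to 30004 CPM in DM. WT 1 stood apart in the 8 goblet cell markers, whose sum was 142 CPM there against 14846 and 15661 CPM in the other WT libraries and 4960 to 5503 CPM in DM. Since these are bulk samples, fewer cells of a type and less RNA per cell cannot be told apart.

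The promoters of class I and class II genes share a short control sequence, the Y box, which binds the NF-Y complex, beside an X box bound by the RFX complex. RefSeq windows of GRCm38.p6, from 250 bases before to 50 bases after each gene's start, were at hand for 6 of the 10 members. The Y box, searched as CTGATTGG on both strands, was in 5 of these 6 genes and in 4.10% of 32851 windows of the same length, 300 bases. The shorter CCAAT box, ATTGG, which lies within the Y box, was in 6 of 6 genes and in 37.4% of windows. The X box core, AGCAAC, was in 1 of 6 (H2-Eb1) against 14.8% of windows, the interferon-stimulated response element, GAAANNGAA, in 1 of 6 (B2m) against 8.56%, and the gamma-activated site, TTCNNNGAA, in 0 of 6 against 8.30%. A match is a description of letters, not of binding. The promoters of H2-Aa, H2-Eb1, H2-K1 and H2-D1 are shown because they put the class II and class I genes side by side, from 130 bases before to 20 bases after the start, 5′ to 3′ on the gene's strand, with the Y box on either strand, and the X box core of H2-Eb1, in capitals.
H2-Aa: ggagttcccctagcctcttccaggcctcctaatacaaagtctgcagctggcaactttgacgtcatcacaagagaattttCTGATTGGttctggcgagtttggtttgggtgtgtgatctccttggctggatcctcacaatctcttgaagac
H2-Eb1: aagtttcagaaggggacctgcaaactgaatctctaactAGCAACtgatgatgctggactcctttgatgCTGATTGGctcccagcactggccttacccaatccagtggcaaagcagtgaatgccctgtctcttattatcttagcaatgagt
H2-K1: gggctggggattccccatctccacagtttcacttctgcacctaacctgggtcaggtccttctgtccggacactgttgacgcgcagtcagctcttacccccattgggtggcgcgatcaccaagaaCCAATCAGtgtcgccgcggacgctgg
H2-D1: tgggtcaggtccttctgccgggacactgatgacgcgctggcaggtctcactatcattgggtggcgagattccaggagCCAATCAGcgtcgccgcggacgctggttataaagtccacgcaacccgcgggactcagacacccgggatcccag
These stretches are chr17:34287804-34287953 (minus strand) for H2-Aa, chr17:34305737-34305886 (plus) for H2-Eb1, chr17:34000314-34000463 (minus) for H2-K1 and chr17:35262964-35263113 (plus) for H2-D1. The Y box began 51 and 62 bases before the start in H2-Aa and H2-Eb1, in the direction of the gene. It was on the opposite strand in H2-K1, 6 bases before the start of the second of its 2 windows, and in H2-D1, 53 bases before the start. In Tap1 it lay 222 bases before the start, also on the opposite strand.

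Of the 10 members, 1 passed the test between DM and WT (edgeR quasi-likelihood, adjusted p under 0.05 over all genes), against 36.8% of the 13346 genes tested. It was B2m, which was lower in DM (17.0% of all genes were called lower and 19.7% higher). B2m was also the only member whose groups did not overlap, as was the case for 52.4% of all genes in either direction and for 24.2% with DM below WT. Members called were 2 with DESeq2 (B2m and H2-K1, against 32.9% of its genes), 2 with sex as a covariate (B2m and Ciita, against 37.3%) and 2 in the females alone (B2m and Ciita, against 39.9%). The median log2 fold change was 0.15 over the members and 0.02 over all genes. The members' median was -0.10 without WT 1, -0.12 without DM 2 and 0.70 without WT 3. With library size alone it was 0.33, against 0.22 over all genes. In both groups the order of mean levels per kilobase of exon was B2m, Cd74, H2-D1, H2-K1, H2-Eb1, H2-Ab1, H2-Aa, Tap1, Ciita and Nlrc5. On this scale B2m was at 2524 CPM per kilobase in WT and 1864 in DM, and Cd74 at 1260 and 1596. H2-Ab1 and H2-Aa were at 233 and 170 CPM per kilobase in WT and at 262 and 170 in DM. The spread between mice exceeded this difference in both groups, but H2-Ab1 was above H2-Aa in each of the 6 libraries, from 137 against 114 CPM per kilobase in WT 2 to 120 against 59.9 in WT 1. Single libraries broke the order elsewhere, for example in WT 1, where Cd74 (443 CPM per kilobase) was below H2-D1 (804) and H2-K1 (698). Cd74 was above B2m in DM 2 (1882 against 1836 CPM per kilobase) and DM 3 (2162 against 1907), and H2-Eb1 was above H2-K1 in DM 3 (519 against 259), where the DM means were 387 and 401.

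**Figure D1:**
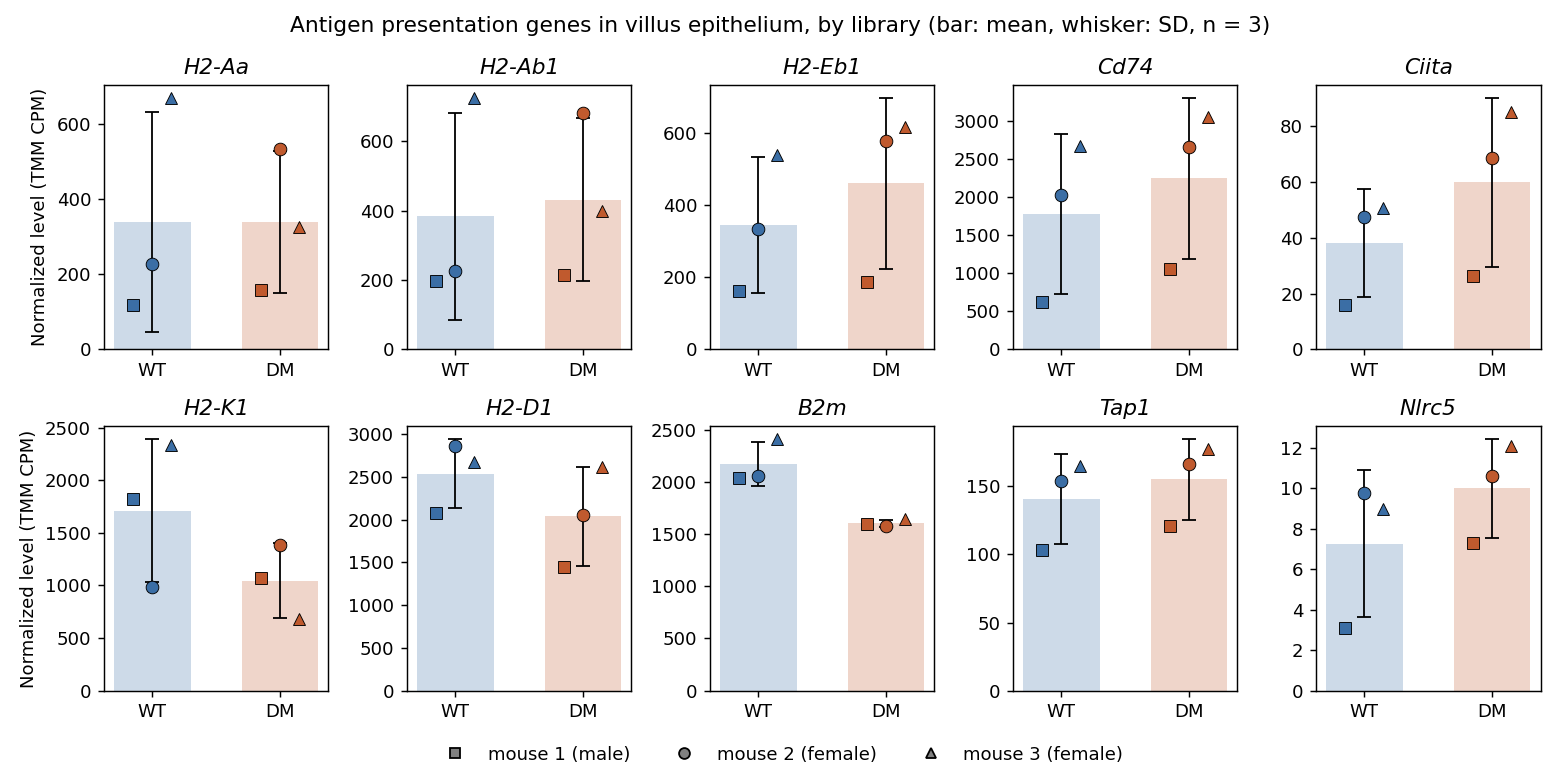
Levels of the 10 members in TMM-scaled CPM (vertical axes start at 0), with 1 point per mouse, a bar for the mean and a whisker for the SD of 3 WT or 3 DM libraries. The B2m points of DM lie between 1579 and 1640 CPM, below all 3 WT points, and in the other panels the groups overlap, with the male (square) lowest in both groups for all but H2-K1 and B2m.

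Among the class II chains, the alpha chain gene H2-Aa (ENSMUSG00000036594, mm9 chr17:34406276-34424772, minus strand) was at 119, 226 and 669 CPM in WT 1, 2 and 3 and at 158, 533 and 324 CPM in DM 1, 2 and 3. WT spanned a 5.62-fold range and held both the lowest and the highest library. The means were 338 ± 292 CPM in WT and 339 ± 188 CPM in DM (SD, n = 3), and the log2 fold change was 0.00 with a 95% interval from -2.04 to 2.05 (edgeR adjusted p = 0.999).

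H2-Ab1 (ENSMUSG00000073421, chr17:34400154-34406363, plus strand), which encodes the beta chain that pairs with H2-Aa, was at 198, 226 and 726 CPM in WT and at 215, 681 and 398 CPM in DM. The same libraries were high as for H2-Aa, WT 3 and DM 2, and the groups overlapped. Its log2 fold change was 0.17 (95% interval -1.60 to 1.94, edgeR adjusted p = 0.871). The genes H2-Ab1 and H2-Aa overlap by 88 bases on opposite strands, and as the strand setting of the counting was not given, reads from that overlap cannot be assigned.

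H2-Eb1 (ENSMUSG00000060586, chr17:34442828-34453144, plus strand), the beta chain of the H2-E molecule, was at 162, 335 and 539 CPM in WT and at 187, 578 and 617 CPM in DM. Here DM 3 was the highest library, unlike for H2-Aa and H2-Ab1. Its difference was 0.41 on the log2 scale (95% interval -1.17 to 2.00, edgeR adjusted p = 0.645). It ran from 0.075 without WT 1 to 0.88 without WT 3 when 1 mouse was left out.

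The invariant chain Cd74 (ENSMUSG00000024610, chr18:60963502-60972300, plus strand) was the most abundant class II member per kilobase. It was at 625, 2032 and 2671 CPM in WT and at 1051, 2654 and 3048 CPM in DM, so that the male library was the lowest of each group. The log2 fold change was 0.34 (95% interval -1.29 to 1.97, edgeR adjusted p = 0.717), with DM higher by 0.75 between the males and by 0.29 between the females. With sex as a covariate it was 0.43 (adjusted p = 0.0718). When 1 mouse was left out, it ran from -0.063 without WT 1 to 0.76 without WT 3.

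Ciita (ENSMUSG00000022504, chr16:10480237-10527657, plus strand), the class II coactivator, was at 15.8, 47.5 and 50.5 CPM in WT and at 26.1, 68.4 and 84.9 CPM in DM. The male was again the lowest of its group, and the female DM libraries were above every WT library. The log2 fold change was 0.66 (95% interval -0.88 to 2.19, edgeR adjusted p = 0.447). With 1 mouse left out it ran from 0.29 without WT 1 and 0.32 without DM 3 to 1.02 without DM 1. Within each sex it was 0.72 between the males and 0.64 between the females. With sex as a covariate it was 0.67 ± 0.13 (SE, edgeR adjusted p = 0.00505, with 20.1% of all genes called higher), and in the females alone it was 0.65 ± 0.14 (adjusted p = 0.00623, 20.9% called higher). In the model with group alone it was 0.51 (adjusted p = 0.711) when WT 2 and DM 3 were left out, and a model with sex was not run on those 4 libraries. The second Ciita row (ENSMUSG00000075404, chr16:10489876-10492330), which lies inside the first, was at 0.958, 1.58 and 4.45 CPM in WT and 1.46, 4.64 and 5.84 CPM in DM, a log2 fold change of 0.78 (edgeR adjusted p = 0.398).

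The summed level of the 3 class II chains and Cd74 was 1104, 2819 and 4606 CPM in WT and 1611, 4446 and 4387 CPM in DM. Its WT range of more than 4-fold exceeded the difference between the group means, 2843 and 3481 CPM. The range within WT was 2.49 on the log2 scale for H2-Aa, 1.88 for H2-Ab1, 1.73 for H2-Eb1, 2.10 for Cd74 and 1.67 for Ciita, against a median of 0.42 over all genes. In DM these 5 ranges ran from 1.54 to 1.75, against a median of 0.38.

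The male library was the lowest of both groups for 8 of the 10 members, H2-K1 and B2m being the exceptions, and for 12.7% of all tested genes. This count was made after the values were seen. Each group held 1 male, so sex and the individual mouse cannot be told apart, and the male WT library was also the one low in goblet cell markers. All 16 intraepithelial lymphocyte markers were in the table, and their sum was lowest in the same libraries, at 114 CPM in WT 1 against 237 and 241 CPM in WT 2 and 3, and at 99.2 CPM in DM 1 against 118 and 143 CPM in DM 2 and 3. Of the 14 markers tested, 12 had negative log2 fold changes (median -0.92) and 3 were called lower in DM (21.4%, against 36.8% of all genes called). Their part in the class I and class II levels was not tested. The unadjusted intervals of Cd74 (0.05 to 0.82), Nlrc5 (0.04 to 1.12) and H2-D1 (-0.66 to -0.01) left out 0 with sex in the model, as did those of Ciita and B2m, although none of the 3 passed the adjusted threshold.

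**Figure D2:**
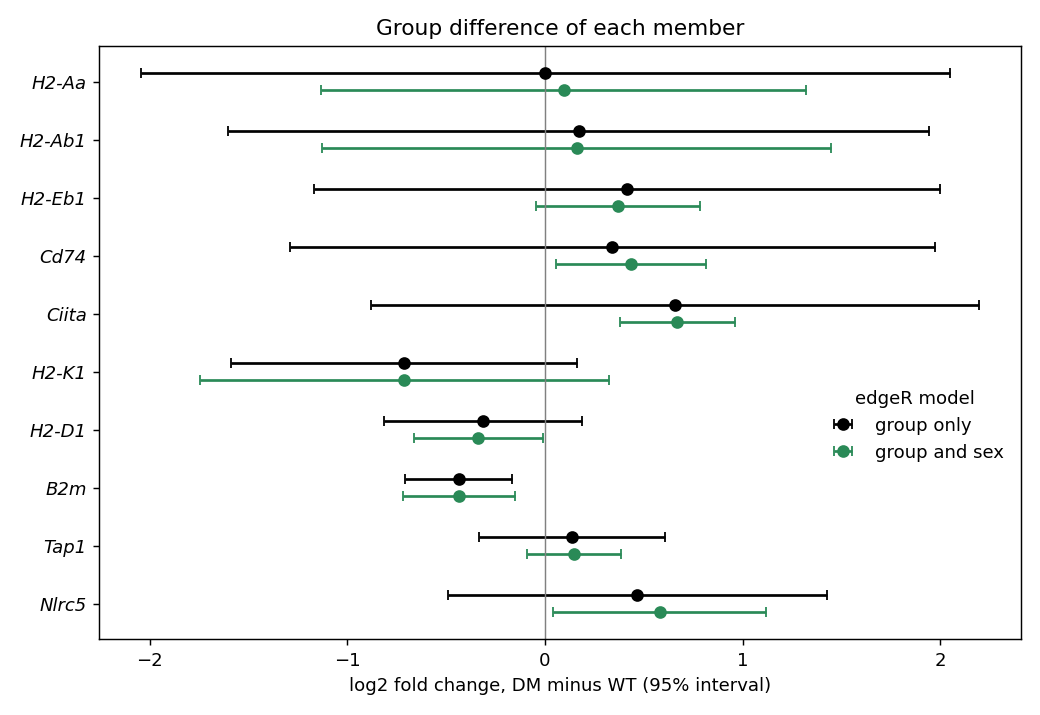
Log2 fold change, DM minus WT, of each member (points) with its 95% interval (bars) in edgeR models with group alone (black) and with group and sex (green). With sex in the model the interval of Ciita runs from 0.38 to 0.96, against -0.88 to 2.19 with group alone, and that of B2m lies below 0 in both models.

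Professional antigen-presenting cells express the same class II genes. Of 22 macrophage and dendritic cell markers 20 were in the table, 4 of these had at most 3 counts in every library, and none was at 0 in all 6. Their summed level was 21.4 to 38.6 CPM in WT and 17.7 to 24.3 CPM in DM, against 1104 to 4606 CPM for the class II chains and Cd74. Ptprc, which all leukocytes express, intraepithelial lymphocytes included, made up 13.9 to 24.97 CPM of the WT sums and 6.21 to 9.97 CPM of the DM sums (log2 fold change -1.29, edgeR adjusted p = 0.00545). Itgam had 79, 66 and 77 counts in WT and 98, 113 and 140 counts in DM (log2 fold change 0.61, edgeR adjusted p = 0.0698). Itgax had 24, 63 and 68 counts in WT and 27, 35 and 39 in DM, and Tyrobp 30, 43 and 35 in WT and 11, 31 and 27 in DM. Of the 6 markers tested, 2 had positive and 4 negative log2 fold changes, and 1 was called (16.7%, against 36.8% of all genes). Csf1r, the macrophage growth factor receptor, had at most 6 counts in any library, C1qa at most 7 and the dendritic cell genes Clec9a and Xcr1 at most 2 and 5. Without Ptprc, the sum of the other 19 markers was 7.50, 13.7 and 13.6 CPM in WT and 9.34, 11.5 and 14.3 CPM in DM. It was lowest in WT 1 and DM 1, as class II was, and in DM its order was that of Cd74. The part of these cells in the class II levels was not tested. Of 10 B cell and plasma cell markers 8 were in the table, with a sum of 61.1 to 69.8 CPM in WT and 85.3 to 105 CPM in DM. Most of it was Sdc1, which epithelial cells also express, and without Sdc1 the sum of the other 7 was 0.791, 0.816 and 1.06 CPM in WT and 1.08, 1.95 and 2.23 CPM in DM, higher in every DM library. Ms4a1, which encodes the B cell surface protein CD20, had 0, 1 and 2 counts in WT and 8, 14 and 8 counts in DM. Cd79b, a part of the B cell receptor, had 8, 3 and 3 counts in WT and 4, 16 and 17 counts in DM, and Cd79a had at most 5 counts in any library. The part of B cells in the class II levels was not tested either.

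Relative to Cd74 within each library, Ciita counts were 2.53, 2.34 and 1.89% in WT and 2.48, 2.58 and 2.79% in DM. This was a 1.47-fold range, although Cd74 itself ranged from 625 to 3048 CPM. H2-Eb1 was at 26.0, 16.5 and 20.2% of Cd74 in WT and at 17.8, 21.8 and 20.2% in DM. H2-Ab1 was less even, at 31.7, 11.1 and 27.2% in WT and 20.4, 25.7 and 13.1% in DM. H2-Aa was at 19.0, 11.1 and 25.1% in WT and 15.1, 20.1 and 10.6% in DM. WT 2 and DM 3 were thus the lowest libraries of their groups for both chains.

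WT 2 and DM 3 stood apart in the same way at other genes of the H2 region on chromosome 17. H2-DMb1, a beta chain of the peptide-loading molecule H2-DM, was at 1.19 and 1.12% of Cd74 counts in them and at 3.06 to 3.30% in the other 4. Its neighbour H2-DMb2 was at 1.00 and 1.77% in them and at 0.38 to 0.66% in the others. Btnl6, a butyrophilin-like gene, had 0 counts in WT 2 and DM 3 (allowing up to 3 counts, the floor) and was at 10.2 to 34.2 CPM in the other 4. Rps18, a ribosomal protein gene, was at 2.77 and 10.8 CPM in them and at 40.0 to 159 CPM in the others.

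These genes were singled out after their values were seen. Each library was set against the mean of the other libraries of its group on the log2 scale. Over the 139 tested genes of chr17:34075766-37620497 (mm9), 6 (4.32%) were at least 1 log2 unit from that mean in WT 2 and DM 3. The direction was the same in both libraries, and the share was 0.409% for genes elsewhere. By the same measure WT 1 with DM 1 had 10 and WT 3 with DM 2 had 8, so this pair was not the highest by number. Mouse strains carry different H2 haplotypes and mm9 is a C57BL/6 genome. The haplotype of each mouse was not given in the sources used here and its part in these values was not tested.

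**Figure D3:**
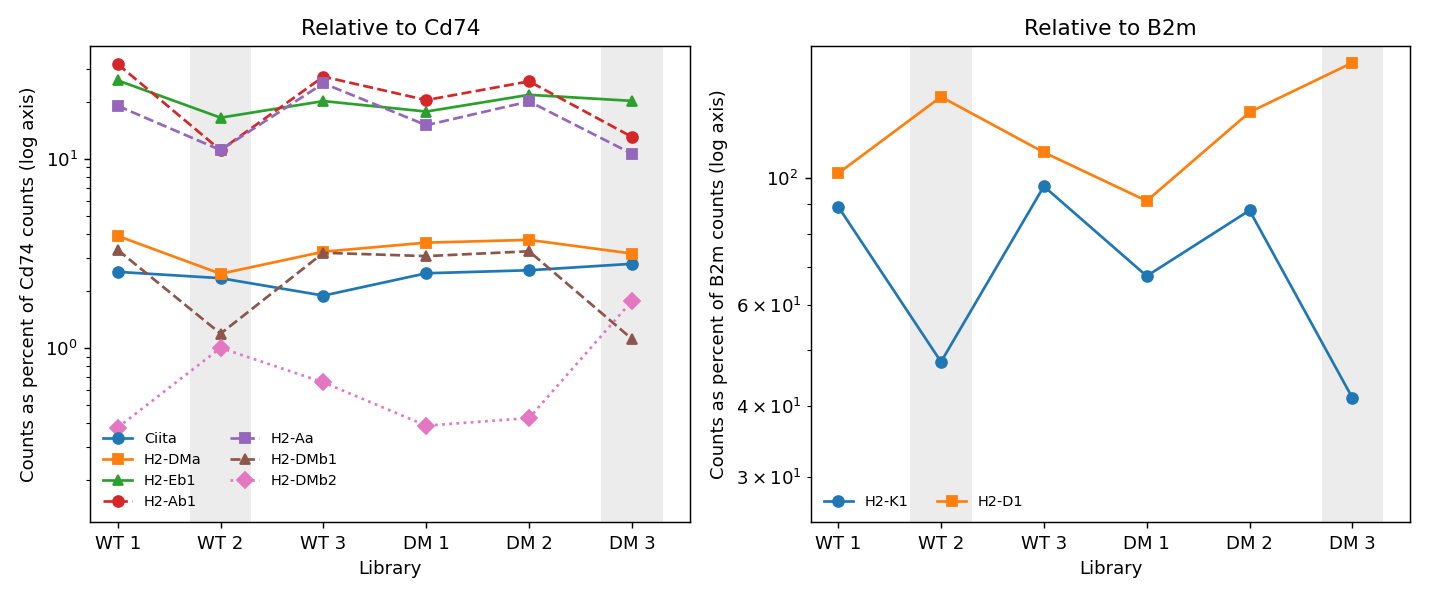
Counts of class II genes as percent of Cd74 counts (left) and of class I heavy chains as percent of B2m counts (right) in each of the 6 libraries, on log axes, with WT 2 and DM 3 shaded. Ciita stays between 1.89 and 2.79% of Cd74, while H2-DMb1 drops to 1.19 and 1.12% and H2-K1 to 47.7 and 41.3% in the shaded libraries.

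Among the class I members, B2m (ENSMUSG00000060802, chr2:121973422-121978819, plus strand), the light chain shared by all classical class I molecules, was lower in DM. It was at 2040, 2060 and 2412 CPM in WT and at 1591, 1579 and 1640 CPM in DM, where every library was below every WT library. The means were 2171 ± 209 CPM in WT and 1603 ± 32.3 CPM in DM (SD, n = 3). Its log2 fold change was -0.44 ± 0.12 (SE, 95% interval -0.71 to -0.17, edgeR adjusted p = 0.0198), at -0.44 with sex as a covariate (adjusted p = 0.0256). The call was lost without WT 3, DM 1, DM 2 or DM 3, with log2 fold changes of -0.36 to -0.45 and adjusted p values of 0.0544 to 0.0663, and with scaling by library size alone, where the log2 fold change was -0.25 (adjusted p = 0.144). The call was also lost with replicate number as a block in the model (-0.43, adjusted p = 0.0598) and without WT 2 and DM 3 (-0.49, adjusted p = 0.12).

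The heavy chain gene H2-K1 (ENSMUSG00000061232, chr17:34132962-34137278, minus strand) was at 1819, 983 and 2334 CPM in WT and at 1073, 1386 and 676.5 CPM in DM. WT 2 was below DM 1 and DM 2, so the groups overlapped. The log2 fold change was -0.71 (95% interval -1.59 to 0.16, edgeR adjusted p = 0.177). Without WT 2 it was -0.99 (adjusted p = 0.0447), and DESeq2 gave -0.73 (adjusted p = 0.0367, with 16.1% of genes called lower).

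H2-D1 (ENSMUSG00000073411, chr17:35399675-35404444, plus strand), the other classical heavy chain, was at 2080, 2859 and 2676 CPM in WT and at 1452, 2059 and 2611 CPM in DM. The male library was the lowest of each group. The log2 fold change was -0.31 (95% interval -0.82 to 0.19, edgeR adjusted p = 0.294). It ran from -0.53 without DM 3 to -0.11 without DM 1, and with sex as a covariate it was -0.34 (adjusted p = 0.0974). In WT 2 and DM 3, where H2-K1 was lowest relative to B2m (47.7 and 41.3%, against 67.4 to 96.7% in the others), H2-D1 was highest (139 and 159%, against 91.2 to 130%). The class I heavy chains are close in sequence and the treatment of reads that match several genes was not given, so reads may be split between them.

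The summed level of H2-K1, H2-D1 and B2m was 5939, 5902 and 7422 CPM in WT and 4116, 5023 and 4927 CPM in DM, without overlap, a log2 ratio of the group means of -0.45. It was -0.26 with scaling by library size alone, which also moved the median of all genes from 0.02 to 0.22.

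Tap1 (ENSMUSG00000037321, chr17:34324498-34334170, plus strand), a subunit of the peptide transporter, was at 103, 154 and 165 CPM in WT and at 121, 166 and 178 CPM in DM. It followed class II in that the male was lowest in each group. Its log2 fold change was 0.14 (95% interval -0.33 to 0.61, edgeR adjusted p = 0.631).

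Nlrc5 (ENSMUSG00000074151, chr8:96996663-97051172, plus strand), the class I coactivator, which the mm9 annotation lists as a lincRNA, was at 3.08, 9.74 and 8.95 CPM in WT and at 7.28, 10.6 and 12.1 CPM in DM. It was the lowest member per kilobase, and its log2 fold change was 0.47 (95% interval -0.49 to 1.43, edgeR adjusted p = 0.411). With 1 mouse left out it ran from 0.096 without WT 1 to 0.74 without WT 2. With sex as a covariate it was 0.58 (adjusted p = 0.0852), and in the females alone 0.28 (adjusted p = 0.254).

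Of 18 further genes of class II presentation, 14 were tested, 2 rose and 2 fell (28.6%, against 36.8% of all genes), with a median log2 fold change of 0.09. With sex as a covariate 3 were called higher and 2 lower, where 37.3% of all genes were called in either direction. Lgmn, the endosomal protease legumain, was at 19.2, 17.8 and 18.7 CPM in WT and at 159, 157 and 193 CPM in DM, a log2 fold change of 3.19 ± 0.13 (SE, edgeR adjusted p = 7.06e-06). Nfya, a subunit of NF-Y, rose by 0.60 (adjusted p = 0.0126). Ctsl, the endosomal protease cathepsin L, was at 41.0, 47.6 and 49.6 CPM in WT and at 25.4, 19.5 and 23.97 CPM in DM (log2 fold change -1.0, adjusted p = 0.00116). Rfxank, a subunit of RFX, was at 27.5, 31.4 and 33.2 CPM in WT and at 20.3, 16.5 and 14.3 CPM in DM (log2 fold change -0.85, adjusted p = 0.00424). Rfx5, another RFX subunit, was at 4.21, 8.98 and 6.32 CPM in WT and 10.2, 10.6 and 10.9 CPM in DM (log2 fold change 0.70, adjusted p = 0.0657; 0.75 and adjusted p = 0.0382 with sex as a covariate). For H2-DMb2 the difference was 0.79 on the log2 scale (adjusted p = 0.666), and for Ctss, the protease cathepsin S that trims Cd74, it was 0.05 (adjusted p = 0.765). Marchf8, a ubiquitin ligase, and Nfyc, an NF-Y subunit, had log2 fold changes of -0.28 (adjusted p = 0.0932) and -0.27 (adjusted p = 0.0893). The B cell genes H2-Oa and H2-Ob were near 0 in all libraries and were not tested.

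Of 13 genes of class I peptide supply and loading, 12 were in the table and tested, 4 rose and 1 fell (41.7%, against 36.8% of all genes), with a median of 0.22. The split was 2 higher and 2 lower with sex as a covariate and 6 higher and 0 lower with library size alone. With that scaling 3732 of all genes were called higher and 1425 lower (median log2 fold change 0.22). In this list 0 were called without WT 3, without DM 2 or without both WT 2 and DM 3. Over all genes 3952, 3442 and 2050 were called in those fits. The chaperones Canx, Calr and Pdia3 rose by 0.44 (edgeR adjusted p = 0.0439), 0.42 (adjusted p = 0.0387) and 0.39 (adjusted p = 0.023), and Psme1, a proteasome activator subunit, by 0.41 (adjusted p = 0.0296). Canx, Calr and Pdia3 serve the folding of many glycoproteins besides class I. With sex as a covariate Canx (adjusted p = 0.0534) and Calr (adjusted p = 0.0504) were no longer called. Tapbp, tapasin, which bridges class I to TAP, fell by 0.42 on the log2 scale (adjusted p = 0.0269), at 460, 536 and 572 CPM in WT and 369, 386 and 420 CPM in DM. Tap2, the partner of Tap1, had one of -0.55 (adjusted p = 0.225; -0.59 and adjusted p = 0.0463 with sex as a covariate), and Tapbpl, a tapasin relative, one of -0.02 (adjusted p = 0.909). For Psmb8, an immunoproteasome subunit, the log2 difference was 0.14 (adjusted p = 0.681).

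Of 20 other class I heavy chains and relatives, 17 were in the table and 13 were tested. Of these, 1 rose and 3 fell (30.8%, against 36.8% of all genes), with a median log2 fold change of -0.13. The median was 0.094 without DM 1, -0.37 without DM 2 and 0.052 with library size alone. With sex as a covariate 2 were called higher and 4 lower, and with library size alone 1 and 1. Over all genes 2686 were called higher and 2298 lower with sex, and 3732 and 1425 with library size alone. H2-Q2 was at 1672, 1582 and 1568 CPM in WT and at 844, 784 and 937 CPM in DM, a log2 fold change of -0.91 ± 0.12 (SE, edgeR adjusted p = 0.000758), and its second row had one of -1.52 (adjusted p = 0.00284). H2-T22 and H2-T3, nonclassical class I genes, had log2 fold changes of -0.58 (adjusted p = 0.0316) and -0.32 (adjusted p = 0.0372). H2-T23, which encodes Qa-1, was at 469, 572 and 663 CPM in WT and 282, 379 and 486 CPM in DM (log2 fold change -0.57, adjusted p = 0.063; -0.59 and adjusted p = 0.0131 with sex as a covariate). H2-Q10 rose by 1.09 (adjusted p = 0.000772), from 14.3 to 19.2 CPM in WT to 34.3 to 37.7 CPM in DM. H2-M3 and Fcgrt, the neonatal Fc receptor, had log2 fold changes of 0.66 (adjusted p = 0.193) and 0.48 (adjusted p = 0.136). With sex as a covariate Fcgrt was called higher, at 0.52 (adjusted p = 0.047). The H2-Q and H2-T genes are near-identical families, so their separate values are uncertain.

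Interferon-gamma signalling, which acts on Ciita and Nlrc5, was covered by 12 genes, of which 11 were tested, 1 rose and 4 fell (45.5%, against 36.8% of all genes), with a median of -0.10. Ifng itself had at most 2 counts in any library. The receptor subunit Ifngr2 was at 363, 309 and 335 CPM in WT and 231, 210 and 215 CPM in DM, a log2 fold change of -0.62 (edgeR adjusted p = 0.00313), while Ifngr1 had one of 0.09 (adjusted p = 0.559). The receptor kinase Jak2 was at 316, 343 and 287 CPM in WT and 180, 142 and 169 CPM in DM, a log2 fold change of -0.95 (adjusted p = 0.000958). Socs1, a feedback inhibitor of this kinase, had one of -1.44 (adjusted p = 0.0117), and Irf2, a transcription factor that binds interferon elements, one of -0.49 (adjusted p = 0.0118). Irf8 rose by 0.87 (adjusted p = 0.00372). The transcription factor Irf1 had a log2 difference of -0.25 (adjusted p = 0.208), and the phosphatase Ptpn2 one of 0.26 (adjusted p = 0.134).

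Of 15 interferon-gamma-induced GTPases, 12 were tested, and 1 fell (8.33%, against 36.8% of all genes), with a median of -0.39. In the females alone 4 were called lower (2565 of 13523 over all genes), and with sex as a covariate 2 (2298 of 13346 over all genes). Irgm2 was at 66.1, 60.9 and 61.9 CPM in WT and 41.5, 41.4 and 42.9 CPM in DM, a log2 fold change of -0.59 (edgeR adjusted p = 0.00297). Gbp10 was at 0, 4.62 and 5.1 CPM in WT and at 1.08, 1.21 and 0.997 CPM in DM. Its log2 fold change was -1.55 (adjusted p = 0.364) with all libraries and -2.13 (adjusted p = 0.00112) in the females alone. Gbp9 was at 0.625, 4.08 and 3.34 CPM in WT and at 1.36, 1.35 and 1.61 CPM in DM (log2 fold change -0.88, adjusted p = 0.277; -1.32 and adjusted p = 0.013 in the females alone). Igtp had a log2 difference of -0.51 (adjusted p = 0.103; -0.47 and adjusted p = 0.0429 with sex as a covariate). The log2 difference was -0.98 for Tgtp2 (adjusted p = 0.184), 0.56 for Gbp8 (adjusted p = 0.459), 0.46 for Irgm1 (adjusted p = 0.343) and 0.07 for Gbp4 (adjusted p = 0.898).

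**Figure D4:**
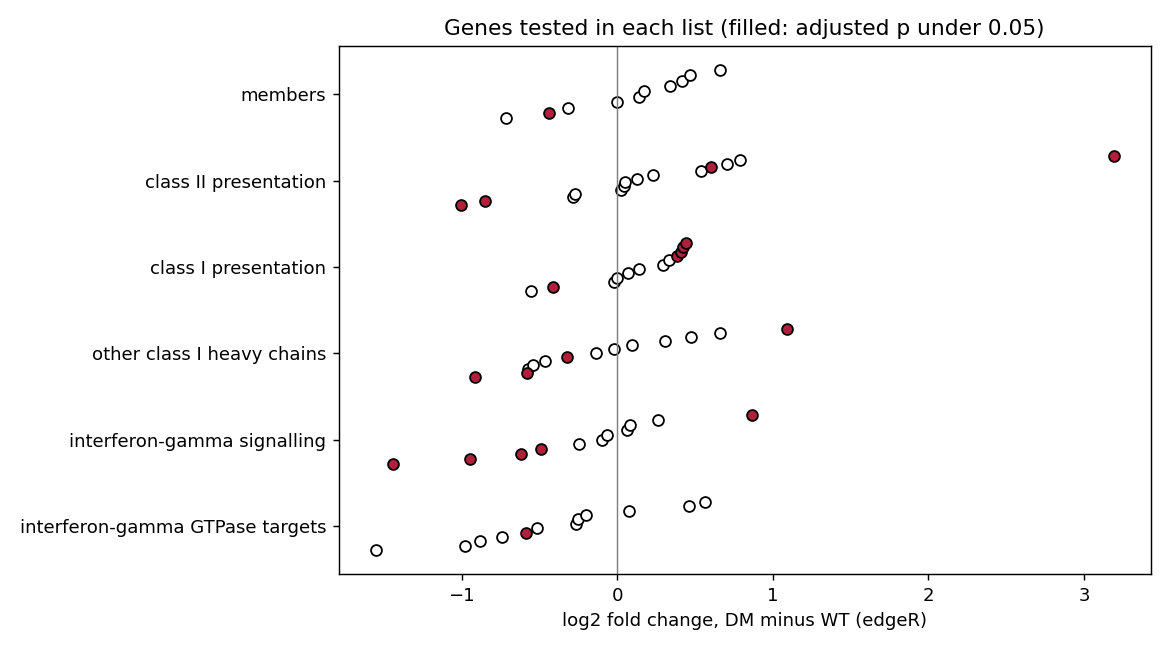
Log2 fold change, DM minus WT, of each tested gene (1 circle per gene) among the members and in 5 lists of related genes, with filled circles for an edgeR adjusted p under 0.05. One member is filled, B2m at -0.44, and Lgmn stands far to the right at 3.19 in the class II presentation list.

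The genes whose levels ran most like the mean of H2-Aa, H2-Ab1, H2-Eb1 and Cd74 over the 6 libraries were Tmprss4 (Pearson r = 0.986), H2-Q7 (0.977), Sufu (0.976), Zfp658 (0.975) and H2-DMa (0.974), the alpha chain of H2-DM. The 5 genes most like the mean of H2-K1, H2-D1 and B2m were Gm14286 (0.985), Golt1b (0.983), Fam126a (0.98), 2310003F16Rik (0.979) and Akr1b10 (0.977). These are descriptions over 6 libraries that share depth and composition, chosen from 13346 genes. A high r does not mean a change of the same size. Among the genes most like class II, Tmprss4 ran only from 127 to 148 CPM and Sufu from 8.62 to 11.2 CPM. H2-Q7 ran from 4.58 to 15.2 CPM and H2-DMa from 24.5 to 98.9 CPM. Zfp658 was at 0.0833 CPM in WT 1, below the floor.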

How the data were processed

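RNA of villus epithelium from 3 WT and 3 DM mice was sequenced after poly(A) enrichment. Per the labels and the study's methods, the authors aligned reads to mm9 with HISAT2, counted them with featureCounts and deposited raw counts per gene, with no normalization. The strand setting and the treatment of multi-mapping reads were not given in the sources used here. Genes were filtered with filterByExpr, scaled by TMM and compared with edgeR 4.0.16 (R 4.3.3; glmQLFit robust, glmQLFTest), with Benjamini-Hochberg adjustment over the 13346 genes tested and a threshold of 0.05. Positions and exon lengths come from the GENCODE annotation of mm9. An exact permutation test of 3 against 3 cannot go below 0.1, so no test of single values was used. Intervals and floors cover the spread between mice or counting error only, since reads carry no molecular identifiers. Alternatives were DESeq2 1.42.0, RLE factors, library size alone, limma-voom (limma 3.58.1), 2 other filters, a replicate block, sex, females only and each mouse left out. Leaving out WT 2 and DM 3 was chosen after seeing the data. Scripts were tested on simulated data.

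All 10 members are named, with every gene past the threshold and the 3 largest changes in each direction in the 5 lists of related genes. Cell type marker lists are given by their sums. For likeness, the 5 genes with the highest correlation of log2 CPM are named. Other genes were named after their values were seen, and some list genes are not reported here by name. Members and lists were chosen with earlier results of these data known.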

Additional observations from a re-analysis of the deposited data

How the results depend on the processing

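With group alone in the model, the 95% intervals of the class II members were wide (-0.88 to 2.19 for Ciita, against 0.38 to 0.96 with sex as a covariate). Of the values compared, 135 for members kept their direction and side of the threshold, and 84 counts or sums stayed close in total, which does not mean that the same genes were called. The exceptions follow, and their cause was not tested. Members called were 0 with library size alone and without WT 2 and DM 3, 2 with DESeq2, sex as a covariate or females only, and 0 to 2 with 1 mouse left out. All genes called were 2050 without WT 2 and DM 3, 3442 to 5144 with 1 mouse left out, and 3732 higher and 1425 lower with library size alone, against 2632 and 2273. Without WT 2 and DM 3, 2050 of 13553 genes were called. The lists then had 2 of 14 (class II presentation), 0 of 12 (class I presentation), 2 of 13 (other heavy chains) and 3 of 11 (interferon-gamma signalling). Class I presentation had 3 with RLE factors, 0 with the replicate block and 0 to 4 with 1 mouse left out (0 without WT 3 or DM 2, 2 without WT 2, 1 without DM 3), and with sex as a covariate its 4 higher and 1 lower became 2 and 2. Other heavy chains had 2 with library size alone and 2 to 5 with 1 mouse left out (2 without WT 2, DM 1 or DM 2). GTPase targets had 1 higher and 1 lower with DESeq2 and with no low-count filter, and 2 lower with sex. They had 4 lower in females only and 1 to 5 lower with 1 mouse left out (5 without WT 1). The class I sum had a log2 ratio of -0.26 with library size alone.

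The H2-Aa log2 fold change reversed to -0.0216 (RLE factors), -0.0158 (DESeq2), -0.0605 (females only) and -0.19 (without WT 2 and DM 3), and ran from -0.49 to 0.97 with 1 mouse left out. H2-Ab1 reversed to -0.0435 without WT 2 and DM 3 and ran from -0.32 to 1.02. Without WT 1, Cd74 and Tap1 reversed; with 1 mouse left out they ran from -0.0633 to 0.76 and from -0.0428 to 0.30. B2m passed the threshold in 9 of 16 alternatives, Ciita in 3 and H2-K1 in 2.

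Over the genes tested, the deviations of same-numbered libraries from their group means had correlations of r = 0.0224, -0.109 and 0.0123. With 3 libraries per group these values cannot decide whether the mice were paired, and the groups were matched for age and sex. With the replicate block 3834 genes and 1 member passed, which was Ciita, higher in DM, in place of B2m (log2 fold change 0.67, edgeR adjusted p = 0.0129), and B2m had -0.43 (adjusted p = 0.0598).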
